A study of Homo sapiens with 16 samples.

Results

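The SR splicing factors are RNA-binding proteins with a tail rich in arginine and serine that bind exons and help the spliceosome choose splice sites. They were followed by RNA-seq and Ribo-seq in WI-38, a human lung fibroblast line that can divide only a limited number of times. Ribo-seq reads the pieces of mRNA that ribosomes protect from RNase, called footprints. The 10 members SRSF1, SRSF2, SRSF3, SRSF4, SRSF5, SRSF6, SRSF7, SRSF9, SRSF10 and SRSF11 were picked by gene symbol, and 10 of 10 were found among the 23597 genes of the RNA-seq table and among the 19201 of the Ribo-seq table. All 10 passed the filter on low counts in each assay. Senescent cells (passage 36) after heat shock, senescent controls, young cells (passage 24) after heat shock and young controls had 2 libraries in each assay, which made 16 libraries in 8 groups. Heat shock was 2 h at 44 °C, where the labels' 440C was read as a lost degree sign. All groups had been starved of serum and refed before the experiment. The labels do not say whether the replicates came from separate cultures, so p-values measure the spread between these libraries, which may be technical.

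SR proteins act in the nucleus once their tails are phosphorylated, by SRPK kinases in the cytoplasm, which lets them be imported, and by CLK kinases in the nucleus. Heat shock is known to strip phosphate from SRSF10, which then turns into a repressor of splicing. SRSF1, SRSF7 and SRSF9 are known to gather in nuclear stress bodies of heat-shocked human cells. The family also limits itself, because many members favour a poison exon or a spliced 3′ end in their own RNA that exposes a stop codon to nonsense-mediated decay, and others keep unspliced transcripts in the nucleus. The level of a member's RNA and its use by ribosomes can therefore move apart.

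Annotation shows how widely these alternative forms are spread in the family. In GENCODE v29 (GRCh38) 10 of 10 members had a transcript classed as a target of nonsense-mediated decay, against 35.6% of 19969 protein-coding genes, and 8 of 10 had a retained intron transcript, against 46.1%. SRSF7 had 6 decay transcripts, the most of the family, and SRSF6 and SRSF11 had no retained intron transcript. The genes lie on chromosomes 17 (SRSF1 and SRSF2), 6 (SRSF3), 1 (SRSF4, SRSF10 and SRSF11), 14 (SRSF5), 20 (SRSF6), 2 (SRSF7) and 12 (SRSF9). The stretches of premature stop exons below are shown as examples of such forms, for which the deposited tables hold no value of their own: each runs from the first base of the exon to its first in-frame stop codon, which is in capitals, 5′ to 3′ on the gene's strand. They are exons of the decay transcripts SRSF7-204 (chr2:38749319-38749346, minus strand, exon 4, of 449 bases), SRSF3-203 (chr6:36599821-36599854, plus strand, exon 4, of 456 bases), SRSF4-206 (chr1:29166009-29166064, minus strand, exon 4, of 175 bases) and SRSF6-202 (chr20:43459153-43459304, plus strand, exon 3, of 268 bases).
SRSF7: gtttcttcgtttgagtcagtcgcctTGA
SRSF3: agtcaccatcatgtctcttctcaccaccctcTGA
SRSF4: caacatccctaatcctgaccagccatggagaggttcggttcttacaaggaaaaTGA
SRSF6: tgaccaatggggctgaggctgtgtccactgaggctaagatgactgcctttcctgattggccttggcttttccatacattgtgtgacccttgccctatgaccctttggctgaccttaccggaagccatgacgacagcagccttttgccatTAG
In SRSF7 and SRSF3 the stop comes 28 and 34 bases into the exon, in SRSF4 after 56 and in SRSF6 after 152. The tables hold 1 value per gene, and the labels leave out whether the annotation behind them held decay transcripts.

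Counts assigned to genes came to 26434514 to 37126871 per RNA-seq library and 4581141 to 9104077 per Ribo-seq library, and a member had 661 to 11738 RNA counts and 156 to 2372 footprint counts per library. Of the fibroblast markers, 10 of 10 were above 1 TPM, a level scaled by transcript length, in all libraries. Epithelial markers, 3 of 7 of them above 1 TPM in all RNA libraries, summed to 188 to 224 TPM in senescent and 133 to 147 TPM in young RNA libraries, and their part in the results was not tested. The 2 young control footprint libraries differed from each other far less than other pairs did: chi-square over its degrees of freedom was 1.73 over 11377 genes, against 17.2 to 38.7 in the other Ribo-seq pairs and 67.5 to 105 in RNA-seq. Each footprint and ratio call is therefore also given with these libraries summed as 1 sample. Overlap with the young control footprints was judged with them as 2 libraries and was not judged again with the sum. In bulk samples fewer cells of a type and less RNA per cell cannot be told apart.

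No member's RNA passed the test of heat shock against control, in either state of the cells. The values of SRSF5, SRSF6, SRSF2 and SRSF3 were the lowest relative to control in young and senescent cells alike. Each change is given as a log2 fold change with its SE, from 2 libraries a group, by edgeR's quasi-likelihood test with Benjamini-Hochberg adjustment over all genes and a threshold of 0.05. Levels are CPM, counts scaled to the size of the library, after TMM scaling. In young cells 0 of 10 members were called, where 1.14% of 13177 genes were called, and in senescent cells 0 of 10, where 0.577% were. At an unadjusted p below 0.05 there were 3 members in young and 4 in senescent cells, against 1333 (10.1%) and 1092 (8.29%) genes. DESeq2 called 0 members in each.

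**Figure D1:**
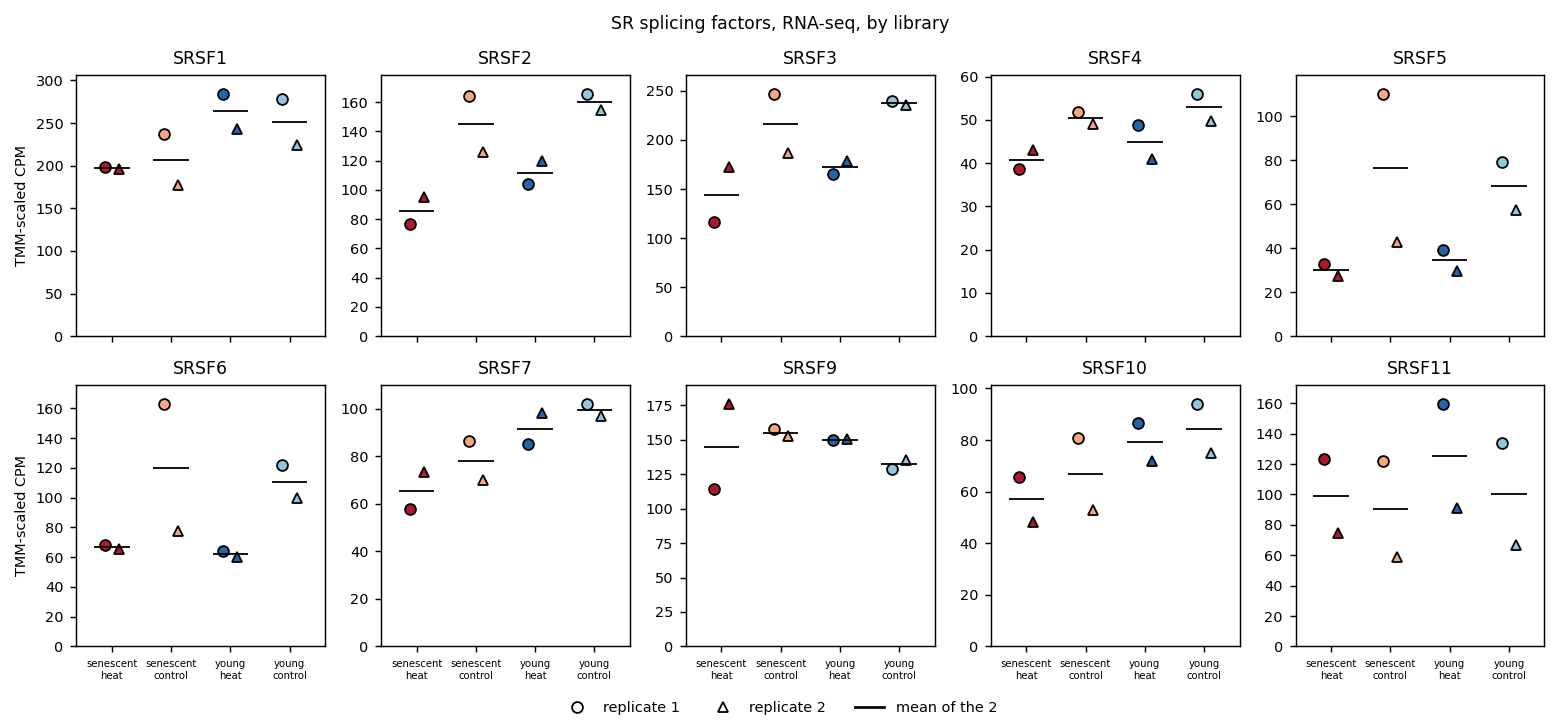
RNA level of each SR factor in every library (TMM-scaled CPM, y axes from 0), with replicate 1 as circles, replicate 2 as triangles and the mean of the 2 as a line. SRSF5 and SRSF6 lay at 27.5 to 68.3 CPM in the heat shocked libraries and at 42.8 to 163 in the controls, and in SRSF11 replicate 1 was above replicate 2 in all 4 groups.

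SRSF5, a factor that binds exonic enhancers and is induced in growing liver of rats, had 32.9 and 27.5 CPM in senescent heat shocked cells, against 110.2 and 42.8 in senescent controls. Young cells had 39.2 and 29.9 CPM after heat shock, against 79.1 and 57.4 in controls. Every heat shocked library lay below every control, but the senescent controls stood 1.36 apart on the log2 scale. The change was −1.34 ± 0.41 in senescent cells (adjusted p = 0.354, edgeR) and −0.98 ± 0.41 in young cells (adjusted p = 0.459). Same-numbered RNA libraries deviated together, and with the replicate number as a block SRSF5 was called lower in senescent cells (−1.24, adjusted p = 0.0278) and in young cells (−0.98, adjusted p = 0.0456). That fit called 5.13% of all genes lower in young cells, where 1 of 10 members was called, and 3.62% in senescent cells, where 2 of 10 were.

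SRSF6, which like SRSF4 carries a poison exon in its own gene, had 68.3 and 65.3 CPM in senescent heat shocked cells, against 163 and 77.5 in senescent controls. In young cells it had 64.4 and 59.9 CPM after heat shock, against 122 and 99.8 in controls. The heat shocked libraries were close to each other and the controls were not, most of all in senescent cells, where replicate 1 was 1.07 above replicate 2 on the log2 scale. The changes were −0.85 ± 0.32 in senescent cells (adjusted p = 0.502, edgeR) and −0.84 ± 0.32 in young cells (adjusted p = 0.399).

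SRSF2, also called SC35 and known as a mark of nuclear speckles, had 76.4 and 95.0 CPM in senescent heat shocked cells, against 164 and 126 in senescent controls, a change of −0.76 ± 0.21 (adjusted p = 0.269, edgeR). With the replicate block it was called lower there (−0.76, adjusted p = 0.0402). Among young cells it had 104 and 119 CPM after heat shock, against 166 and 154 in controls, a change of −0.52 ± 0.21 (adjusted p = 0.444). The groups did not overlap in either state.

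SRSF3, the smallest member and an adaptor for mRNA export, had 116 and 173 CPM in senescent heat shocked cells, against 247 and 186 in senescent controls. Young cells had 165 and 179 CPM after heat shock, against 239 and 235 in controls. Its changes were −0.59 ± 0.24 and −0.46 ± 0.24 in senescent and young cells (adjusted p = 0.558 and 0.629, edgeR). SRSF4, the member with the longest coding sequence of the 7 measured here, also lay below control without overlap in each state, at −0.31 ± 0.20 and −0.23 ± 0.20.

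The other members' RNA stayed near control. The prototype SR protein SRSF1, the zinc knuckle protein SRSF7, SRSF9, SRSF10 and SRSF11 had changes between −0.25 and 0.13 in senescent cells and between −0.12 and 0.32 in young cells, with SEs of 0.21 to 0.47. SRSF9 was the 1 member with both young heat shocked libraries above both controls (149 and 151 CPM, against 128 and 136). In all, 5 members lay below control without overlap in senescent cells and 0 above, where 16.4% of genes lay below and 14.7% above. In young cells 5 lay below and 1 above, against 20.7% and 19.5% of genes. The median change of the members was −0.28 in senescent and −0.18 in young cells, against −0.01 and 0.01 over all genes tested.

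SRSF11, a relative of the family that binds early spliceosome components, had a spread between RNA replicates that ran the same way in all groups. It had 123 and 74.3 CPM in senescent heat shocked cells, 122 and 59.0 in senescent controls, 159 and 91.4 in young heat shocked cells and 134 and 67.0 in young controls. Replicate 1 was higher by 0.73 to 1.05 on the log2 scale in all 4 groups. In footprints the same gap ran between −0.21 and 0.01, so the offset of SRSF11 was seen in RNA and not in footprints.

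**Figure D2:**
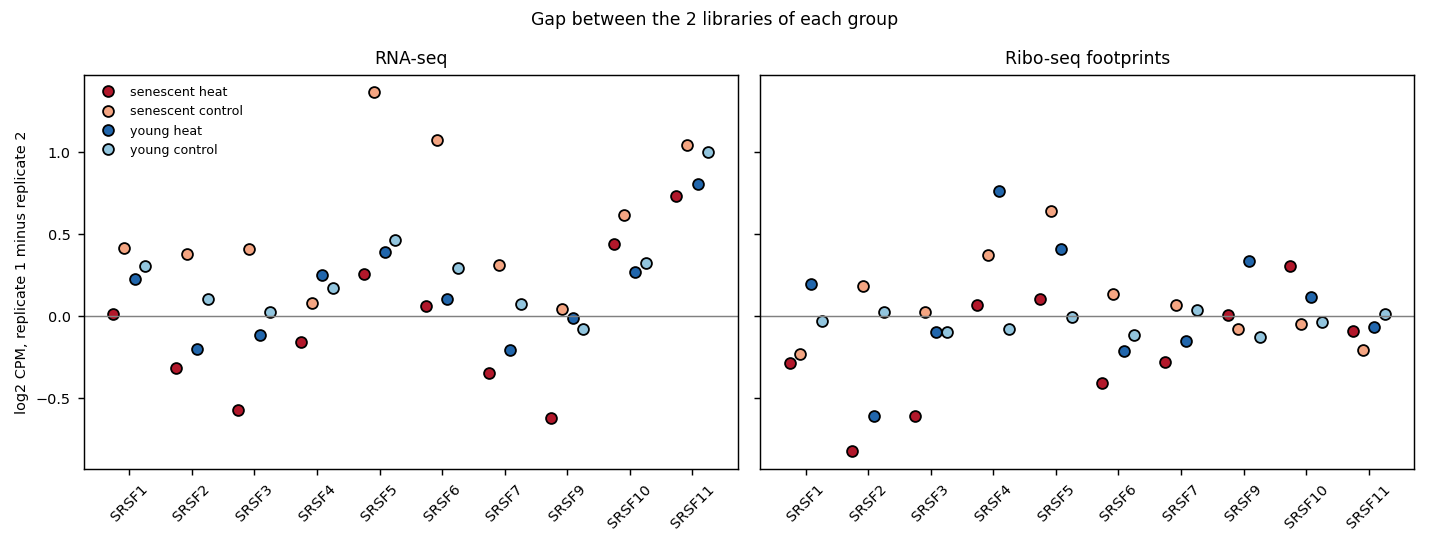
Gap between the 2 libraries of each group for each SR factor (log2 CPM, replicate 1 minus replicate 2), in RNA-seq at left and Ribo-seq at right, with a colour per group and a line at 0. In RNA, SRSF11 lay at 0.73 to 1.05 in all groups and SRSF5 and SRSF6 reached 1.36 and 1.07 in senescent controls, while in footprints SRSF11 lay between −0.21 and 0.01.

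Footprints of SRSF11 rose on heat shock in senescent and in young cells, and those of SRSF7 and SRSF1 rose in senescent cells. In senescent cells 3 of 10 members were called higher and 0 lower, where 3.12% of 11288 genes were called higher and 5.24% lower. In young cells 1 of 10 was called higher, where 0.771% were called higher, and 0 lower, where 0.381% were lower. No call held with the young control footprint libraries summed as 1 sample, a fit in which 247 genes were called in senescent and 27 in young cells, against 943 and 130 with them as 2 samples. With that sum and the replicate number as a block, the 3 senescent calls passed (adjusted p = 0.00739 for SRSF11, 0.0133 for SRSF7 and 0.0256 for SRSF1, edgeR), where 5.93% of genes were called higher, and the young one did not (0.0689).

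**Figure D3:**
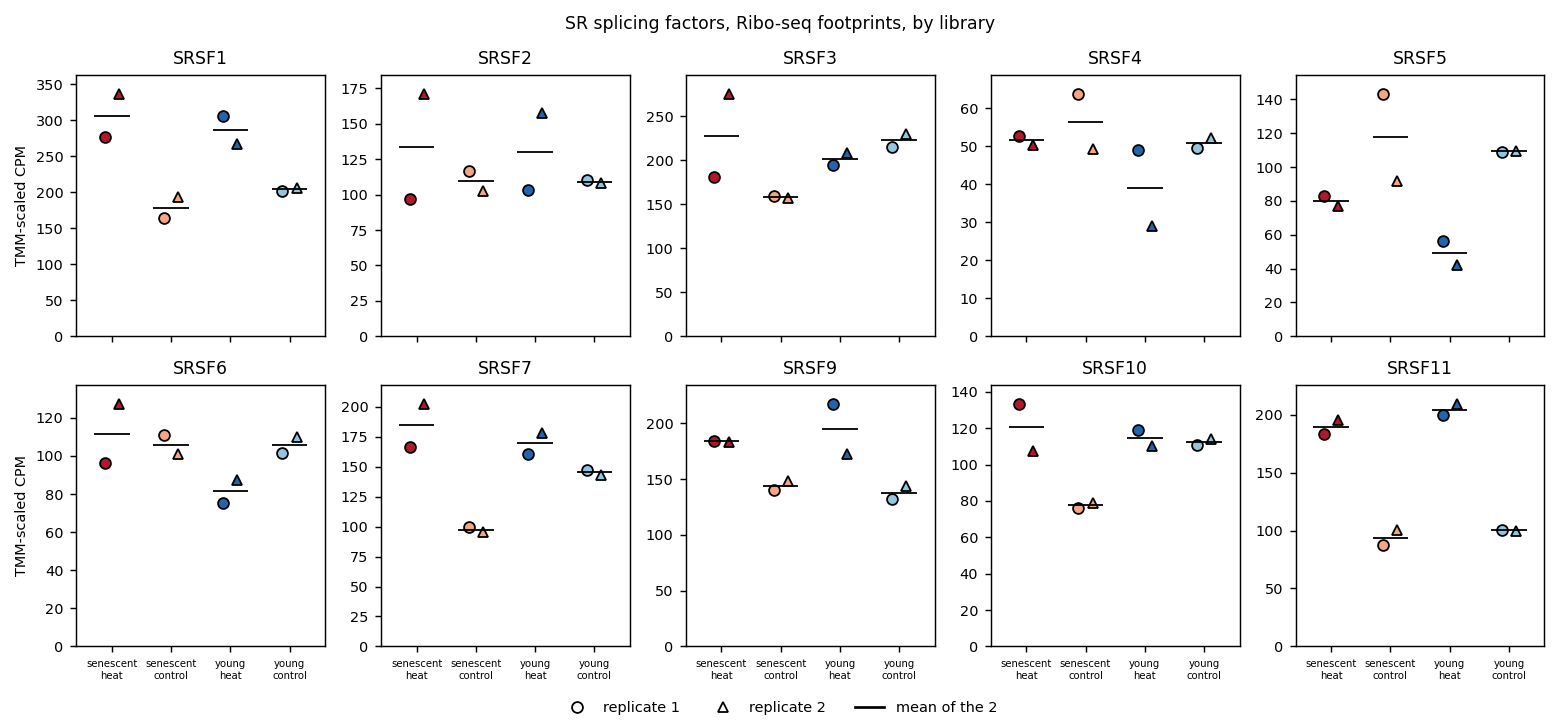
Footprint level of each SR factor in every library (TMM-scaled CPM, y axes from 0), with replicate 1 as circles, replicate 2 as triangles and the mean of the 2 as a line. SRSF11 lay at 183 to 209 CPM in the heat shocked libraries and at 87.2 to 100.7 in the controls, and SRSF7 at 161 to 202 after heat shock against 95.1 to 147 in controls.

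SRSF11 had 183 and 195 footprint CPM in senescent heat shocked cells, against 87.2 and 100.7 in senescent controls. In young cells it had 199.7 and 209 CPM after heat shock, against 100.7 and 99.7 in controls. All 4 heat shocked libraries lay above all 4 controls, and replicates were close. The change was 1.01 ± 0.18 in senescent cells (2.01-fold, adjusted p = 0.0168, edgeR) and 1.03 ± 0.18 in young cells (2.04-fold, adjusted p = 0.0330). With the young controls as 1 sample the changes were 1.01 and 1.03 and adjusted p was 0.0647 and 0.442. The senescent call ended without either young control, replicate 1 of senescent control or replicate 2 of senescent heat shock (adjusted p = 0.0552 to 0.0824) and by the narrowest margin without replicate 2 of senescent control, and leaving out any of the 4 young libraries ended the young call (0.102 to 0.479).

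SRSF7, an export adaptor like SRSF3 and the member with the most annotated decay transcripts, had 167 and 202 footprint CPM in senescent heat shocked cells, against 99.5 and 95.1 in senescent controls. The change was 0.92 ± 0.19 (1.89-fold, adjusted p = 0.0244, edgeR). In young cells SRSF7 had 161 and 178 CPM after heat shock, against 147 and 143 in controls, a change of 0.22 ± 0.19 (adjusted p = 0.608). The groups did not overlap in either state, and the young controls lay above the senescent ones. The senescent call was not held with the young controls as 1 sample (0.92, adjusted p = 0.0801), nor without either young control, either senescent control or replicate 2 of senescent heat shock (adjusted p = 0.0802 to 0.0921).

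SRSF1, the prototype of the family, had 276 and 336 footprint CPM in senescent heat shocked cells, against 164 and 193 in senescent controls. The change was 0.78 ± 0.19 (1.72-fold, adjusted p = 0.0408, edgeR), with no overlap. Young cells had 305 and 267 CPM after heat shock, against 202 and 206 in controls, a change of 0.49 ± 0.19 that did not pass (adjusted p = 0.264). With the young controls as 1 sample the senescent change was 0.78 (adjusted p = 0.121), and 7 of the 8 fits that left out a library lost the call (adjusted p = 0.0519 to 0.165); the fit without replicate 1 of senescent heat shock kept it (0.0234).

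SRSF10, the factor that heat shock turns into a repressor, had 133 and 108 footprint CPM in senescent heat shocked cells, against 76.2 and 78.9 in senescent controls (0.64 ± 0.19, adjusted p = 0.0752, edgeR, and 0.0486 under DESeq2). In young cells it had 119 and 110.0 CPM after heat shock, against 111 and 114 in controls, a change of 0.03 ± 0.19. SRSF3 had 180.5 and 275 CPM in senescent heat shocked cells, against 159 and 157 in senescent controls (0.53 ± 0.22, adjusted p = 0.157), and 195 and 208 CPM in young heat shocked cells, against 215 and 230.3 in young controls (−0.14 ± 0.22). For SRSF3 the young and senescent groups lay on opposite sides of their controls, without overlap. SRSF9 lay above control in each state (0.35 ± 0.19 and 0.50 ± 0.19 in senescent and young cells) and did not pass.

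SRSF5 was the member with the lowest footprint change. It had 82.9 and 77.3 CPM in senescent heat shocked cells, against 143 and 91.9 in senescent controls (−0.55 ± 0.25, adjusted p = 0.189, edgeR). In young cells it had 56.2 and 42.4 CPM after heat shock, against 109 and 109.6 in controls (−1.15 ± 0.25, adjusted p = 0.0731). Heat shocked libraries lay below controls in each state, as they did for its RNA. The young value just missed the threshold and passed it under DESeq2 (−1.13, adjusted p = 0.00680), while with the young controls as 1 sample adjusted p was 0.500.

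SRSF2, SRSF4 and SRSF6 showed changes of 0.28 ± 0.30, −0.13 ± 0.27 and 0.07 ± 0.21 in senescent cells and of 0.25 ± 0.30, −0.39 ± 0.27 and −0.38 ± 0.21 in young cells. Replicates of SRSF2 after heat shock were far apart, at 96.6 and 171 CPM in senescent and 103 and 157 CPM in young cells. Over the family, 6 members lay above and 1 below control without overlap in senescent cells, where 26.8% of genes lay above and 27% below, and 4 above and 4 below in young cells, where 27.4% and 31.6% did. The members' median footprint change was 0.44 in senescent and 0.12 in young cells, against 0.03 and −0.01 over all genes. Scaled by library size alone, the median of all genes moved to −0.25 and −0.28 and that of the members to 0.16 and −0.15.

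**Figure D4:**
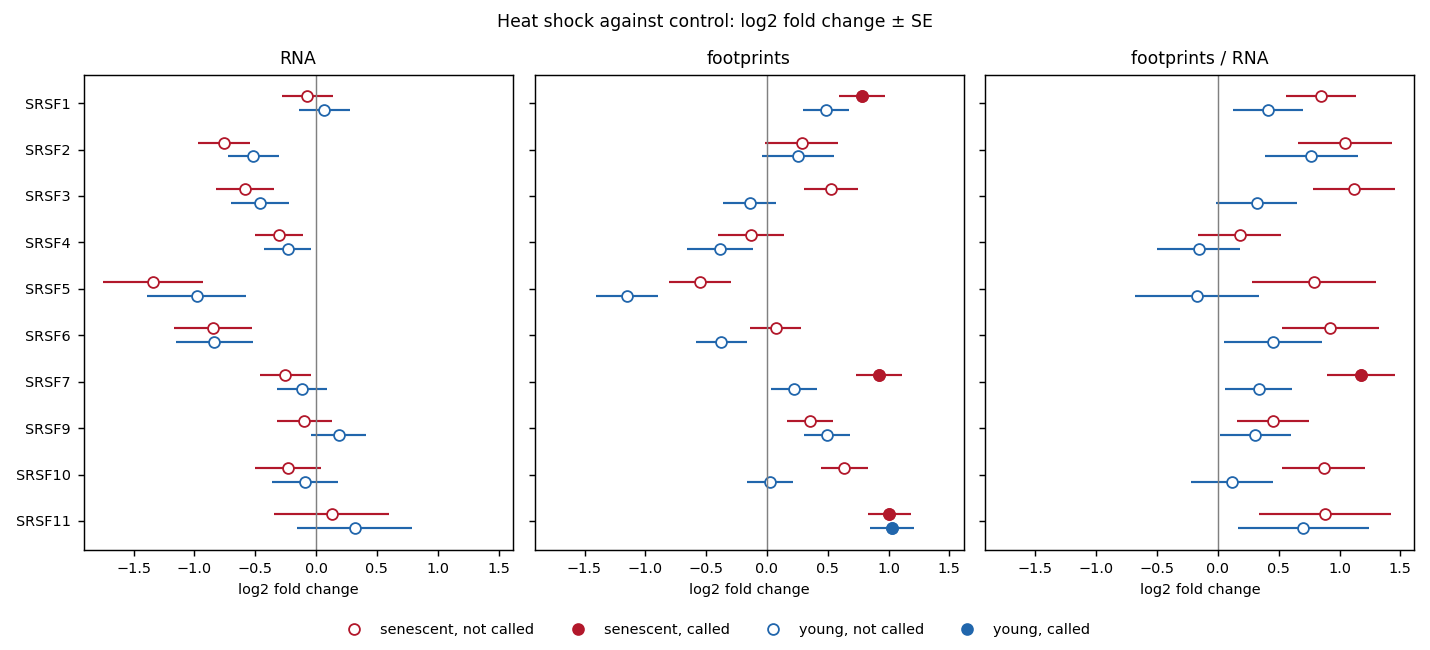
Heat shock against control for each SR factor (log2 fold change, bars ± SE, from 2 libraries a group) in RNA, in footprints and in their ratio, with senescent cells in red above young cells in blue and filled points where adjusted p was below 0.05. Filled points are SRSF1, SRSF7 and SRSF11 (senescent) and SRSF11 (young) in footprints and SRSF7 (senescent) in the ratio, where all 10 senescent points lie right of 0.

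The ratio of footprints to RNA on heat shock, taken as the footprint change minus the RNA change in 1 fit of all 16 libraries, was above 0 for 10 of 10 members in senescent cells, and 1 of these, SRSF7, was called higher. Of 11166 genes 0.233% were called higher and 2.1% lower there, and 54.0% had a value above 0. Across genes the senescent heat change was correlated with GC content, at Spearman 0.29 in RNA and −0.17 in footprints. The members' median GC content was 44.96%, against 50.02% over all RNA genes and 49.49% over all footprint genes. No ratio fit had the GC trend removed, so the part of GC content in the ratio was not tested. SRSF7 changed by 1.18 ± 0.28 (2.26-fold, adjusted p = 0.0415, edgeR), from an RNA change of −0.25 and a footprint change of 0.92. With the young control footprints as 1 sample adjusted p was 0.0847 (1.18), and 14 of the 16 fits that left out a library lost the call (adjusted p = 0.0538 to 0.195); those without senescent control RNA replicate 2 (0.0293) and without senescent heat shock footprint replicate 1 (0.0238) kept it.

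SRSF3 and SRSF2 had ratio changes of 1.12 ± 0.33 and 1.05 ± 0.39 in senescent cells (adjusted p = 0.106 and 0.190, edgeR), where their RNA lay below control and their footprints did not. SRSF6, SRSF11, SRSF10, SRSF1 and SRSF5 lay between 0.79 and 0.92, and SRSF9 and SRSF4 at 0.45 ± 0.29 and 0.18 ± 0.34. With the replicate number as a block SRSF7, SRSF10, SRSF11, SRSF1 and SRSF3 were called higher (adjusted p = 0.00997 to 0.0343, edgeR), where 3.3% of genes were, and the same 5 with the young control footprints also summed as 1 sample (0.0125 to 0.0405), where 3.74% were. An unadjusted p below 0.05 was reached without the block by 6 members and by 1901 genes. The median was 0.87 for the members and 0.07 for all genes. Among young cells 461 genes (4.13%) and 0 members had an unadjusted p below 0.05. There 0 members were called (0.0896% of genes were), and DESeq2 called 0 members. Their median was 0.33, against 0.01 over all genes, with SRSF2 at 0.77 ± 0.39 and SRSF11 at 0.70 ± 0.54 highest and SRSF5 at −0.17 ± 0.51 lowest.

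How far footprints and RNA differ in level within a group can be read from TPM. Count over TPM gave relative lengths that followed coding lengths in the footprint table (SRSF4 at 2.42 times and SRSF3 at 0.704 times the length of SRSF9, where coding sequences give 2.24 and 0.742), and other lengths in the RNA table (SRSF1 at 4.85 and SRSF10 at 4.76 times that of SRSF9). The ratio of footprint TPM to RNA TPM thus depends on the RNA length that the authors' processing gave each gene. RNA-seq was made from total RNA, whereas nuclei were spun out of the footprint lysates, per the labels.

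On this TPM scale SRSF10 stood highest, with a footprint TPM over RNA TPM of 9.32 in senescent heat shocked cells, 5.70 in senescent controls, 6.99 in young heat shocked cells and 5.87 in young controls, at percentile 98.6 to 99.4 of all genes. SRSF1 had 5.42, 3.23, 4.03 and 2.81 in the same order of groups, SRSF3 had 5.34, 2.57, 4.10 and 3.07, and SRSF7 had 4.74, 2.26, 3.28 and 2.41. SRSF4, SRSF9 and SRSF11 had the lowest ratios, at 0.72, 0.85 and 0.84 in young controls. The order was another one without length scaling: by the log2 ratio of footprint CPM to RNA CPM, SRSF7 (1.48 ± 0.20) and SRSF5 (1.40 ± 0.36) stood highest in senescent heat shocked cells and SRSF10 had 1.07 ± 0.24. On that scale SRSF10 lay at percentile 64.2 to 84.8 and SRSF1 at 40.1 to 72.6 of all genes over the 4 groups. The median over members was 2.57 in senescent heat shocked cells against 1.51 in senescent controls, and 2.09 in young heat shocked cells against 1.51 in young controls, while the median of all genes was 0.936, 0.948, 0.936 and 0.860 in the 4 groups. All 10 members lay above the median of all genes in senescent heat shocked cells, 7 in senescent controls, 9 in young heat shocked cells and 7 in young controls.

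**Figure D5:**
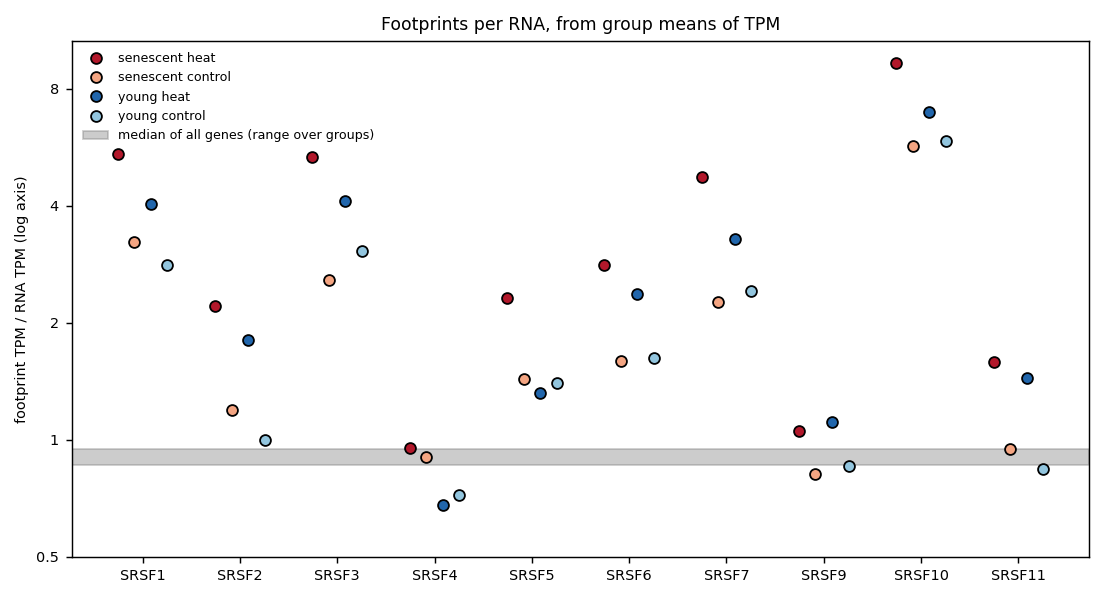
Footprint TPM over RNA TPM of each SR factor, from the mean of 2 libraries per assay and group (log axis), with the range of the 4 group medians of all genes as a grey band. SRSF10, SRSF1, SRSF3 and SRSF7 lie highest in all groups on this length-scaled ratio, and for every member but SRSF4, SRSF5 and SRSF9 the senescent heat shock value is highest, the young heat shock value comes next and the controls follow.

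In RNA TPM, SRSF9 was the highest member in every group, with 218 ± 39.6 in senescent heat shocked cells, 273 ± 13.9 in senescent controls, 242 ± 9.75 in young heat shocked cells and 256 ± 1.87 in young controls (SD, n = 2). SRSF10 was lowest in every group, with 19.6 ± 6.28, 24.1 ± 6.21, 27.7 ± 4.28 and 32.9 ± 4.50 TPM. SRSF2 and SRSF3 followed SRSF9 and did not differ beyond their spread: in senescent heat shocked cells they had 74.5 ± 2.65 and 74.8 ± 12.2 TPM and in young controls 173 ± 12.8 and 163 ± 8.91. In footprint TPM, SRSF3 was highest in every group (400 ± 79.9, 348 ± 2.23, 398 ± 30.8 and 501 ± 24.7 in the same order of groups), SRSF1 came next and SRSF4 was lowest (26.7 ± 3.46, 36.2 ± 6.43, 22.2 ± 7.46 and 33.3 ± 1.27). Summed over the family, RNA was 650.1 and 651 TPM in senescent heat shocked cells against 812 and 1153 TPM in senescent controls. In young cells it was 761 and 856 TPM after heat shock against 1003 and 1199 TPM in controls, so heat shocked sums lay below control sums in each state. In TMM-scaled CPM they did so by a narrow margin. The RNA sums were 892 and 972 CPM against 994 and 1420 in senescent cells, and 1084 and 1187 against 1196 and 1399 in young cells. Footprints summed to 1788 and 1856 TPM in senescent heat shocked cells against 1576 and 1640 TPM in senescent controls, which did not overlap. In young cells they summed to 1856 and 1912 TPM after heat shock against 1887 and 1955 TPM in controls, which overlapped. TPM is not TMM-scaled, and in TMM-scaled CPM the footprint sums lay above control without overlap in each state. They were 1461 and 1481 CPM against 1278 and 1317 in young cells, and 1452 and 1726 against 1117 and 1161 in senescent cells.

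The heat response in senescent cells minus that in young cells was tested for each member, and none passed in RNA (0% of genes did), in footprints (0%) or in the ratio (0.00896%). In footprints the largest differences were those of SRSF7 (0.70 ± 0.26), SRSF3 (0.67 ± 0.31) and SRSF10 (0.61 ± 0.27), each with an adjusted p of 0.834 (edgeR). In RNA 10 of 10 differences were below 0 (−0.36 to −0.01) and in the ratio 10 of 10 were above 0 (0.15 to 0.97), where 49.2% of genes in RNA and 51.2% in the ratio were above 0. Taken by replicate number, the RNA difference was below 0 for every member in replicate 1. In replicate 2 it was below 0 for SRSF2, SRSF10 and SRSF11 only, and above 0 for each other member. SRSF5 RNA changed by −1.74 in senescent and −1.01 in young cells in replicate 1, and by −0.64 and −0.94 in replicate 2. SRSF2 was lower in senescent cells in both (−1.10 against −0.67, and −0.41 against −0.37). An unadjusted p below 0.05 was reached by 0 members in RNA, 1 in footprints and 1 in the ratio. Of all genes 119, 554 and 250 reached it (0.903%, 4.91% and 2.24%). The calls of SRSF1 and SRSF7 in senescent and not in young cells thus do not show a difference between the states. DESeq2 called 0 members in each.

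Senescent against young cells gave no member called in controls, in RNA (0.0379% of genes were called), footprints (0%) or the ratio (0.00896%), nor under heat shock, in RNA (0%), footprints (0.00886%) or the ratio (0%). DESeq2 called 0 members in each. In control footprints SRSF7 had 99.5 and 95.1 CPM in senescent cells, against 147 and 143 in young cells (−0.58 ± 0.19, adjusted p = 0.439, edgeR). SRSF10 had 76.2 and 78.9 CPM in senescent controls, against 111 and 114 in young controls (−0.54 ± 0.19, adjusted p = 0.503), and SRSF3 had 159 and 157, against 215 and 230.3 (−0.50 ± 0.22, adjusted p = 0.635). With SRSF1 these were the 4 members whose senescent controls lay below the young ones, 0 lay above, and 26.7% and 24.8% of genes did. Under heat shock the footprints of SRSF5 differed by 0.70 ± 0.26 between senescent and young cells (adjusted p = 0.333, edgeR), and its RNA differed by −0.19 ± 0.41. With SRSF4 and SRSF6 it was 1 of 3 members above young heat shocked footprints without overlap, and SRSF11 was the 1 below, where 20.4% and 20.1% of genes were.

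In control RNA the members' differences between senescent and young cells ran from −0.35 (SRSF7) to 0.23 (SRSF9), with a median of −0.14 against 0.00 over all genes. Senescent controls lay above young ones without overlap for 1 member, SRSF9, and below for 1, SRSF7, where 17.8% and 18.1% of genes did. Under heat shock the RNA median was −0.30 against −0.04, with SRSF7 (−0.48 ± 0.21, adjusted p = 0.431, edgeR) and SRSF10 (−0.48 ± 0.27, adjusted p = 0.515) lowest. SRSF10 had 65.7 and 48.3 RNA CPM in senescent heat shocked cells, against 86.6 and 71.9 in young heat shocked cells, and was called lower with the replicate block (−0.49, adjusted p = 0.0423), where 5.62% of genes were. With the GC trend of each library also removed the call ended (−0.23, adjusted p = 0.249). With SRSF1, SRSF2 and SRSF7 it made up the 4 members below young heat shocked cells without overlap, and SRSF6 was the 1 above, where 21.3% and 21.7% of genes were. At an unadjusted p below 0.05 there were 0 members in control RNA, 2 in control footprints and 0 in the control ratio. Of all genes 949, 885 and 87 were (7.20%, 7.84% and 0.779%). Under heat shock there were 1, 1 and 1 members, against 1520, 1463 and 733 genes (11.5%, 13.0% and 6.56%). Across genes, the RNA difference was correlated with the gene's GC content (Spearman 0.42 in controls and 0.48 under heat shock), and the members' median GC content was 44.96% against 50.02% over all genes. With each library's GC trend removed the members' median RNA difference was −0.08 in controls and −0.18 under heat shock, against 0.00 over all genes in each.

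Of the enzymes that act on SR proteins, the kinases CLK1 and CLK4 rose in footprints. From a list of 10 SR kinases and import factors, 9 were tested. In footprints 2 of the 9 were called higher on heat shock in each state, and in RNA and in the ratio 0 of 9. Of all genes 3.12% were called higher in senescent and 0.771% in young footprints. CLK4 changed by 4.30 ± 0.47 in senescent cells (adjusted p = 0.00277, edgeR) and 3.41 ± 0.42 in young cells (0.00750), and CLK1 by 3.93 ± 0.52 (0.00771) and 3.34 ± 0.49 (0.0238). Their RNA changes were 1.65 ± 0.51 and 1.81 ± 0.50 for CLK4 and 1.37 ± 0.64 and 1.99 ± 0.64 for CLK1, in senescent and young cells, and did not pass. With the young controls as 1 sample the senescent footprint calls held (adjusted p = 0.00454 and 0.0118 for CLK4 and CLK1) and the young ones did not (0.0971 and 0.226). CLK1 and CLK4 transcripts with retained introns are known to be held in the nucleus and spliced on stress.

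SR-related proteins share the arginine and serine tail or work beside it, and 27 of 28 were tested. This list also held SRSF8 and SRSF12, which were not among the members followed above. SRSF8 footprints changed by −0.43 ± 0.45 in senescent and −0.28 ± 0.44 in young cells on heat shock and were not called. In senescent heat shocked cells 7 of 27 were called higher in footprints, where 3.12% of all genes were. They were led by LUC7L (2.12 ± 0.26), a relative of a U1 snRNP protein, ARGLU1 (1.40 ± 0.27), SON (1.25 ± 0.20), a scaffold of nuclear speckles, and LUC7L3 (1.10 ± 0.23). With the young controls as 1 sample LUC7L (adjusted p = 0.0118, edgeR) and SON (0.0393) held and the other 5 did not. In the ratio of senescent cells 2 of 27 were called higher, LUC7L (1.86 ± 0.39) and SON (1.43 ± 0.29), where 0.233% of genes were. With the young controls as 1 sample their adjusted p was 0.0515 and 0.0475 (edgeR). In young cells 1 of 27, LUC7L, was called higher in footprints, where 0.771% of genes were. Its change was 1.76 ± 0.25 (adjusted p = 0.0141, edgeR, and 0.226 with the young controls as 1 sample). The list's median footprint change was 0.53 in senescent and 0.38 in young cells, against 0.03 and −0.01 over all genes. In RNA 0 of 27 were called, with medians of −0.05 and 0.05, against −0.01 and 0.01 over all genes.

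The hnRNP proteins, which often oppose SR proteins at splice sites, had 23 of 24 members tested. In senescent heat shocked footprints 3 were called higher, HNRNPH2 (1.03 ± 0.21), HNRNPC (0.84 ± 0.20) and HNRNPK (0.81 ± 0.17), and 1 lower, PCBP2 (−0.98 ± 0.24). Of all genes 3.12% were called higher and 5.24% lower there. PCBP2 was also called lower in the senescent ratio (−1.43 ± 0.35), where 2.1% of genes were. No call of this list held with the young controls as 1 sample (adjusted p = 0.0750 to 0.108). Of 15 factors of nonsense-mediated decay and the exon junction complex, MAGOH, a core subunit of the junction complex, was called higher in senescent heat shocked footprints (1.02 ± 0.24), and SMG5, which helps recycle the decay factor UPF1, was called lower in footprints (−1.08 ± 0.21) and in the ratio (−1.49 ± 0.30). With the young controls as 1 sample the ratio call of SMG5 held (adjusted p = 0.0436, edgeR) and the footprint calls of MAGOH and SMG5 did not (0.102 and 0.0725). Neither list had a call in RNA or in young cells.

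The genes whose RNA profile over the 8 libraries was most like the mean profile of the members were UTP18, FAM136A, PSMD7, PSMD6 and PMPCB (Pearson 0.981 to 0.973, of 8635 genes that averaged 10 CPM or more). Of the members themselves SRSF9 (0.0859) and SRSF11 (0.366) followed that profile least, and the other 8 lay between 0.724 and 0.878. In footprints the most similar genes were CCDC28B, SAP18, PRIM2, PFDN1 and EXOC4 (0.976 to 0.962, of 7939 genes). SRSF5 (−0.332) and SRSF4 (−0.0784) departed from the family there, and SRSF7 was closest to it at 0.887. These correlations share libraries, scaling and group structure and are descriptions. Each member is also part of the mean profile it is compared with, so members' values cannot be set beside those of other genes.

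Some reads may not be assignable to 1 member with certainty. SRSF2 overlaps MFSD11 on the opposite strand by 1106 bases and SRSF9 overlaps GATC by 1729 bases in GENCODE v29, and SRSF1 shares 1890 bases with a gene on its own strand. The sources used here do not say whether counting used strand, nor whether the annotation behind the counts held these overlaps. How reads in these stretches were assigned is therefore not known. SRSF1, SRSF9 and SRSF10 have 1 annotated pseudogene each that carries the member's symbol. Pseudogenes under other names were not counted. Promoter windows of 250 bases before the start were on hand from RefSeq (GRCh38.p14) for 9 of 10 members, in 11 windows. Heat shock element pairs, spelled GAANNTTC or TTCNNGAA on either strand, were in 0 of 11, against 11.6% of 35116 promoter windows, which describes these letters in these windows only.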

How the data were processed

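RNA-seq and Ribo-seq libraries of WI-38 cells were analysed from a table of expected counts and a table of TPM for each assay, all of the whole series. Expected counts were deposited as whole numbers, and TPM was scaled by gene length in the authors' RSEM run. Per the submitters' processing notes Bowtie2, STAR and RSEM were used with hg19, with no roles stated. Which annotation was used, and whether counting used strand, the labels leave out. Footprints were made with RNase If and a sucrose cushion, and RNA libraries with a TruSeq RNA kit, per the labels.

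Genes with low expected counts were removed with filterByExpr, libraries were scaled by TMM, and edgeR 4.0.16 in R 4.3.3 fitted 1 mean per group. All 8 libraries of an assay shared 1 estimate of spread (4 residual degrees of freedom; 8 for the ratio, fitted over all 16 libraries). The SE came from the fit's information matrix and the moderated quasi-dispersion. P-values were adjusted over all 13177, 11288 and 11166 genes tested in RNA, footprints and ratio. With 2 libraries per group these p-values rest on few replicates, and the labels name no molecular identifiers. The procedure was tested on simulated counts, drawn with the spread fitted to these data and with known changes in young heat shocked libraries. Of 2-fold changes it called 26 of 99 in RNA, 27 of 100 in footprints and 7 of 100 in the ratio. Of 4-fold changes it called 86 of 100, 78 of 100 and 44 of 96. A member that was not called may thus still have changed.

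Same-numbered RNA libraries deviated together: the gap between replicates correlated at 0.481 to 0.658 over genes in all 6 pairs of groups. In Ribo-seq it was 0.245 to 0.329 in the 3 pairs without the young controls and −0.04 to −0.03 in the 3 with them, and between RNA-seq and Ribo-seq of a group it was 0.22 to 0.492 in 3 groups and 0.00798 in young controls. The labels do not say what the numbers stand for, and the block stayed an alternative in each assay.

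The members and gene lists were chosen with earlier results of these data known. All members are named. Of each other list up to 4 called genes are named by size of change, and the 5 genes most like the members by Pearson correlation of log2 CPM. Alternatives were library size only, edgeR's RLE scaling, no filter, the replicate block, DESeq2 1.42.0, only the 4 libraries compared, limma 3.58.1 on log2(TPM + 1) and log2(TPM + 0.1), voom weights for the ratio and each library left out. Removal of the trend with GC content and young control footprints as 1 sample, each also with the block, were added after seeing the data. GC content and transcript classes came from GENCODE v29 by symbol, for 97.5% of RNA and 98.2% of footprint genes.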

Additional observations from a re-analysis of the deposited data

How the results depend on the processing

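Over 3180 values of members under alternatives, 3047 stayed on their side of the threshold and kept their direction or moved by less than their SE, 61 lost a call, 27 gained one and 45 uncalled values changed sign by more than their SE. In all, 199 values that no fit called changed sign. The 5 called values kept their sign in all 108 alternatives. The number of members called in RNA on heat shock was 1 in young and 2 in senescent cells with the replicate block, and 1 and 2 with the block and the GC trend removed, against 0 in each without it. It was 1 in senescent against young heat shocked cells with the block (SRSF10) and 0 there with block and GC trend removed. The block fits called 1156, 828 and 1811 of all genes in these comparisons, in either direction. In footprints of young cells it was 2 with no filter, with the block, under DESeq2, in the 4 libraries compared and with block and GC trend removed (SRSF5 lower beside SRSF11 higher), and 0 in the 3 limma fits of TPM and with the young controls as 1 sample, also with the block, against 1. With library size only it was also 1, but SRSF5 (lower) and not SRSF11 (adjusted p = 0.0765, edgeR). In footprints of senescent cells it was 1 with library size only (SRSF11) and 0 in the 4 libraries compared, in the 3 limma fits and with the young controls as 1 sample, against 3. It was 4 under DESeq2, which adds SRSF10 and called 1515 genes, and 3 with the young controls as 1 sample and the block. In the ratio of senescent cells it was 0 with no filter, with voom weights and with the young controls as 1 sample, 2 under DESeq2 (SRSF3 and SRSF7) and 5 with the block (SRSF1, SRSF3, SRSF7, SRSF10 and SRSF11, among 1187 genes), also with the young controls as 1 sample, against 1. Same-numbered footprint libraries deviated together in the 3 pairs without the young controls and not in those with them. Leaving out a library gave 0 to 1 called members in young footprints, 0 to 4 in senescent footprints (4 without replicate 1 of senescent heat shock, which adds SRSF3) and 0 to 3 in the senescent ratio (3 without that library), and 0 to 0 in each other comparison. The fits with fewer libraries have fewer degrees of freedom, and otherwise the cause was not tested. Over all genes DESeq2 called more than edgeR did, with 445 against 150 for RNA and 447 against 130 for footprints in young cells. By library size only, the median RNA change of all genes on heat shock was −0.27 in young and −0.23 in senescent cells, and that of the members −0.46 and −0.52. A member's lowest count in a library was 156, and the tests rest on 2 libraries per group.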
